A study of Mus musculus with 6 samples.

Results

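The genes described here are 10 genes of the cohesin system, taken by symbol from the 54532 genes of the deposited expression table. Stag3, Rec8, Rad21l, Smc1b and Sgo2a formed the meiotic set, and Smc1a, Smc3, Stag1, Stag2 and Rad21 formed the mitotic set. Polyadenylated RNA from the whole testis at postnatal day 9 was sequenced for 3 wild-type libraries and 3 libraries of the genotype labelled Ppp6r3 cKO, a conditional knockout. The protein PPP6R3 directs the catalytic subunit of protein phosphatase 6 to its substrates. The sources used here do not give the Cre line, the deleted exons or whether replicates are different animals. The p-values therefore set the group difference only against the spread among these samples, and that spread may be technical. In whole tissue, fewer cells of a type and less RNA per cell cannot be told apart.

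Cohesin is a ring of an SMC1 protein, an SMC3 protein and a kleisin, with a STAG protein bound to the kleisin, and it holds sister chromatids together after replication. In dividing cells the ring is built from SMC1A, SMC3, RAD21 and either STAG1 or STAG2. Germ cells entering meiosis also make paralogs for each of these slots except SMC3: SMC1B for SMC1, REC8 and RAD21L for the kleisin, and STAG3 for STAG. Meiotic cohesin forms the base of the chromosome axis, and REC8 keeps sister chromatids joined into the second meiotic division. SGO2, the product of Sgo2a, is not a ring subunit. It is a shugoshin, which protects centromeric cohesin from separase, and cycling somatic cells express it too. SMC3 belongs to rings of both kinds.

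The libraries were of even depth, with 15970908 to 16606868 fragments each by the steps between the deposited values. Values are FPKM, fragments scaled to exon length and library size. The length that fits the values is that of all annotated exons of a gene together, not of the transcript expressed. Levels compared between genes, and shares of a slot, depend on that length. Ppp6r3 itself stood at 20.8, 21.3 and 21.005 FPKM in wild type and at 15.8, 15.3 and 14.9 FPKM in Ppp6r3 cKO. It fell by 0.45 on the log2 scale (limma adjusted p = 0.000691). Over whole testis this gives no level for the cells in which the gene was deleted. Base composition set Ppp6r3 cKO replicate 1 apart: genes poorest in GC (the bottom of 10 bins) had a median log2 deviation of -0.088 from their group mean, and genes richest in GC had one of 0.080. A fit corrected for GC content and length is given where it changed the call of a cohesin gene or of a listed regulator or SMC subunit.

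The ring subunits of the meiotic set fell in Ppp6r3 cKO testis, to between 53.5% and 64.3% of the wild-type mean, while the means of their mitotic paralogs Smc1a, Stag1, Stag2 and Rad21 were at 97.4% to 107% of wild type. Of the 5 meiotic genes, 4 fell, none rose, and Sgo2a did not pass the test. Of the 5 mitotic genes, Smc3 fell by a small amount and 4 did not pass. Over all 17647 genes tested, 15.5% passed in either direction, 7.86% as lower and 7.67% as higher (limma on log2(FPKM + 0.1), Benjamini-Hochberg adjusted p under 0.05). The median log2 fold change was -0.82 over the meiotic set, -0.02 over the mitotic set and 0.003 over all genes tested. All 10 genes passed the filter on low values.

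**Figure D1:**
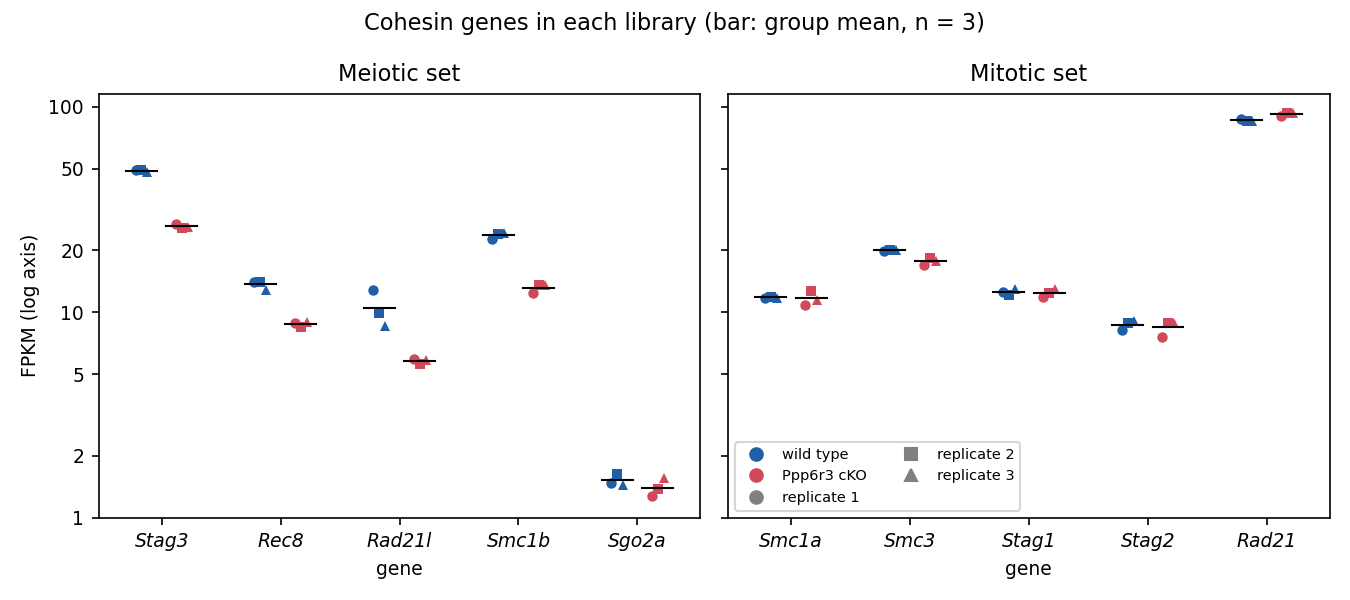
FPKM (log axis) of the 5 meiotic and 5 mitotic genes in each of the 6 libraries, wild type in blue and Ppp6r3 cKO in red, with the replicate number as marker shape and a bar at each group mean. Stag3, Rec8, Rad21l and Smc1b are lower in each Ppp6r3 cKO library than in any wild-type library, and Rad21 is the most abundant gene in both groups.

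Stag3 (ENSMUSG00000036928, mm10 chromosome 5, 138280240 to 138312393, plus strand), the meiotic STAG protein without which the meiotic axis fails to assemble, was the most abundant meiotic gene. It was at 49.0, 49.4 and 48.3 FPKM in the 3 wild-type libraries and at 26.8, 25.8 and 25.9 FPKM in the 3 Ppp6r3 cKO libraries. The replicates of each group lay close together and the groups did not overlap, which was also true of 36.9% of all genes tested, 18.2% with Ppp6r3 cKO lower. The mean went from 48.9 ± 0.534 to 26.2 ± 0.502 FPKM (SD, n = 3 each), a log2 fold change of -0.90 (SE 0.036, limma adjusted p = 2.3e-05). The values rest on 2368 to 4695 fragments per library.

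Smc1b (ENSMUSG00000022432, chromosome 15, 85064689 to 85131964, minus strand) encodes the meiotic SMC1 protein, which holds sister chromatids together and protects telomeres in prophase. It was at 22.7, 24.1 and 24.4 FPKM in wild type and at 12.4, 13.5 and 13.5 FPKM in Ppp6r3 cKO. Again the highest Ppp6r3 cKO library was lower than the lowest wild-type library. The log2 fold change was -0.85 (SE 0.053, limma adjusted p = 0.000138), from a mean of 23.7 ± 0.923 to 13.1 ± 0.658 FPKM (SD, n = 3 each).

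The meiotic kleisins were less abundant than Stag3 and Smc1b, and both fell. Rec8 (ENSMUSG00000002324, chromosome 14, 55618037 to 55625395, plus strand), the kleisin that stays at centromeres into the second division, was at 14.1, 14.1 and 12.9 FPKM in wild type and at 8.92, 8.53 and 8.95 FPKM in Ppp6r3 cKO. Its log2 fold change was -0.63 (SE 0.053, limma adjusted p = 0.000444), the smallest among the 4 meiotic genes that fell. Of all genes tested, 2.17% passed as lower with a fold change at least as large as that of Rec8. Rad21l (ENSMUSG00000074704, chromosome 2, 151645404 to 151668533, minus strand), a kleisin known from early meiotic prophase, was at 12.8, 9.95 and 8.57 FPKM in wild type and at 5.92, 5.58 and 5.83 FPKM in Ppp6r3 cKO. Wild-type replicate 1 was above replicates 2 and 3, and the wild-type SD of 2.16 FPKM was the largest among the 10 genes. The groups did not overlap, and Rad21l fell by 0.82 in log2 units (SE 0.13, limma adjusted p = 0.00699). Leaving out wild-type replicate 1 gave -0.67 and leaving out wild-type replicate 3 gave -0.96, with the call kept in both.

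Sgo2a (ENSMUSG00000026039, chromosome 1, 57995971 to 58025899, plus strand) was the lowest of the 10 genes and the exception in the meiotic set. It was at 1.48, 1.64 and 1.44 FPKM in wild type and at 1.27, 1.38 and 1.56 FPKM in Ppp6r3 cKO, so the groups overlapped. Its log2 fold change, -0.11, did not pass (limma adjusted p = 0.609), with a 95% interval from -0.40 to 0.18, on 146 to 191 fragments per library. That interval does not reach the fold changes of the 4 meiotic ring subunits. Kctd18, a gene on the opposite strand, shares 2455 bases of exon with Sgo2a, 35.0% of its exon length, and although the library kit keeps strand, the setting used in counting is not given in the sources used here, and reads of both genes may be mixed. Kctd18 went from 5.08 ± 0.133 to 4.86 ± 0.387 FPKM (SD, n = 3 each) and did not pass. Its paralog Sgo2b was at 0 in all 6 libraries, and Sgo1, the shugoshin best known from mitosis, was at 0.11 (log2 fold change, limma adjusted p = 0.288, not passing).

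In the mitotic set, Rad21 (ENSMUSG00000022314, chromosome 15, 51962240 to 51991747, minus strand), the kleisin of mitotic rings, was the most abundant of all 10 genes. It was at 87.1, 85.7 and 85.3 FPKM in wild type and at 90.2, 93.5 and 93.3 FPKM in Ppp6r3 cKO. All Ppp6r3 cKO libraries were above all wild-type libraries, as they were for 18.8% of all genes tested. The log2 fold change of 0.10 did not pass in the fit over all genes (limma adjusted p = 0.0822). It passed as higher after the GC and length correction (0.13, limma adjusted p = 0.0143) and without Ppp6r3 cKO replicate 1 (0.12, limma adjusted p = 0.0429).

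Smc3 (ENSMUSG00000024974, chromosome 19, 53600398 to 53645833, plus strand), the subunit that mitotic and meiotic rings share, was at 19.9, 20.1 and 20.035 FPKM in wild type and at 17.033, 18.3 and 17.7 FPKM in Ppp6r3 cKO. The groups did not overlap and Smc3 fell by 0.18 on the log2 scale, to 88.2% of the wild-type mean (SE 0.043, limma adjusted p = 0.0267). The Smc3 call was lost on leaving out any 1 of the 3 wild-type libraries, without Ppp6r3 cKO replicate 3 and with no filter on low values, where the adjusted p reached at most 0.0928.

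Smc1a, Stag1 and Stag2 did not differ beyond the spread of their replicates. Smc1a (ENSMUSG00000041133, chromosome X, 152016428 to 152062694, plus strand), the SMC1 protein of mitotic rings, was at 11.8, 11.9 and 11.7 FPKM in wild type and at 10.9, 12.7 and 11.4 FPKM in Ppp6r3 cKO. Ppp6r3 cKO held both its lowest and its highest library, and the 95% interval of the log2 fold change ran from -0.16 to 0.12. Stag1 (ENSMUSG00000037286, chromosome 9, 100597798 to 100959375, plus strand), known for cohesion at telomeres, was at 12.6, 12.2 and 13.048 FPKM in wild type and at 11.9, 12.5 and 12.955 FPKM in Ppp6r3 cKO, with an interval from -0.14 to 0.10. Stag2 (ENSMUSG00000025862, chromosome X, 42149317 to 42277185, plus strand), known for cohesion at centromeres, was at 8.16, 8.84 and 9.03 FPKM in wild type and at 7.60, 8.86 and 8.89 FPKM in Ppp6r3 cKO, with an interval from -0.21 to 0.13. In both STAG genes the groups overlapped along most of their range. None of these 3 intervals reaches the fold changes of Stag3, Smc1b, Rec8 or Rad21l.

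**Figure D2:**
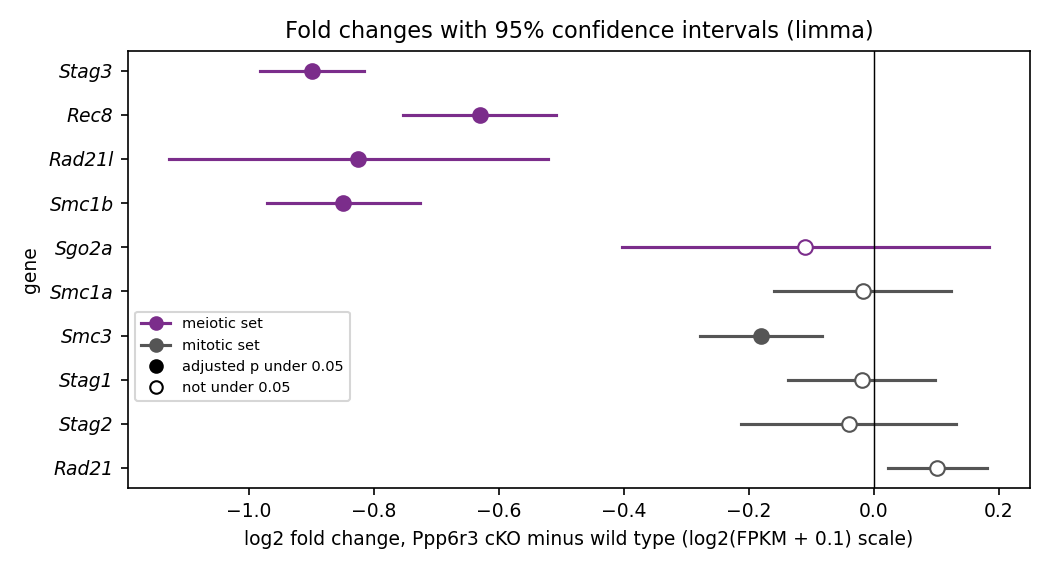
Log2 fold change of each gene (Ppp6r3 cKO minus wild type, log2(FPKM + 0.1) scale) with its 95% confidence interval, the meiotic set in purple and the mitotic set in grey, filled where the limma adjusted p was under 0.05. Stag3, Smc1b, Rad21l and Rec8 lie between -0.90 and -0.63, and the other 6 genes lie between -0.18 and 0.10.

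In wild type the order of levels per length was Rad21, Stag3, Smc1b, Smc3, then Rec8, Stag1, Smc1a and Rad21l, then Stag2 and Sgo2a. Among Rec8, Stag1, Smc1a and Rad21l the ranges of neighbours overlapped or nearly met, and Rad21l also overlapped Stag2. In Ppp6r3 cKO the order changed: Smc3 lay above Smc1b in each library, and Smc1b, at 12.4 to 13.5 FPKM, overlapped Stag1 at 11.9 to 12.955 FPKM and Smc1a at 10.9 to 12.7 FPKM. Rec8, at 8.53 to 8.95 FPKM, overlapped Stag2 at 7.60 to 8.89 FPKM.

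Paralogs that fill the same slot were then compared within each library, which leaves out any scaling between libraries. For SMC1, the ratio of Smc1b to Smc1a was 1.93, 2.02 and 2.09 in wild type and 1.14, 1.06 and 1.18 in Ppp6r3 cKO. For STAG, the ratio of Stag3 to Stag1 was 3.90, 4.05 and 3.70 in wild type and 2.25, 2.07 and 2.002 in Ppp6r3 cKO, and that of Stag3 to Stag2 was 6.01, 5.59 and 5.35 against 3.52, 2.92 and 2.92. For the kleisin, the ratio of Rec8 to Rad21 was 0.161, 0.164 and 0.151 in wild type and 0.0988, 0.0912 and 0.0960 in Ppp6r3 cKO. In each of these pairs every Ppp6r3 cKO library was below every wild-type library.

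The ratio of Rad21l to Rad21 was 0.147, 0.116 and 0.1005 in wild type and 0.0656, 0.0597 and 0.0625 in Ppp6r3 cKO, again without overlap. The mean log2 ratio was lower in Ppp6r3 cKO by 0.74 for Rec8/Rad21, 0.94 for Rad21l/Rad21, 0.84 for Smc1b/Smc1a, 0.86 for Stag3/Stag2 and 0.88 for Stag3/Stag1. For these 5 pairs the exact 2-sided permutation test gave p = 0.1, the smallest that 3 against 3 libraries can give (p = 0.12 adjusted over the 6 pairs compared), so the design cannot reach the 0.05 threshold. The sixth pair, Sgo2a/Sgo1, had overlapping groups (exact permutation p = 0.3).

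Expressed as shares, Stag3 transcripts made up 69.7% ± 0.910 of the FPKM of the 3 STAG genes in wild type and 55.6% ± 1.93 in Ppp6r3 cKO (SD, n = 3 each). Smc1b made up 66.8% ± 0.891 of the SMC1 slot in wild type and 53.0% ± 1.35 in Ppp6r3 cKO. Rec8 and Rad21l together made up 21.9% ± 1.73 of the kleisin slot in wild type and 13.6% ± 0.510 in Ppp6r3 cKO. No share overlapped between the groups, and in wild type the kleisin slot was the only one of the 3 in which meiotic transcripts were the minority. The summed level of the SMC1 slot went from 35.5 ± 0.931 to 24.8 ± 1.49 FPKM and that of the STAG slot from 70.2 ± 0.386 to 47.1 ± 0.770 FPKM. The kleisin slot, which Rad21 dominates, went from 110.1 ± 3.64 to 106.9 ± 1.63 FPKM, a difference within the wild-type SD.

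**Figure D3:**
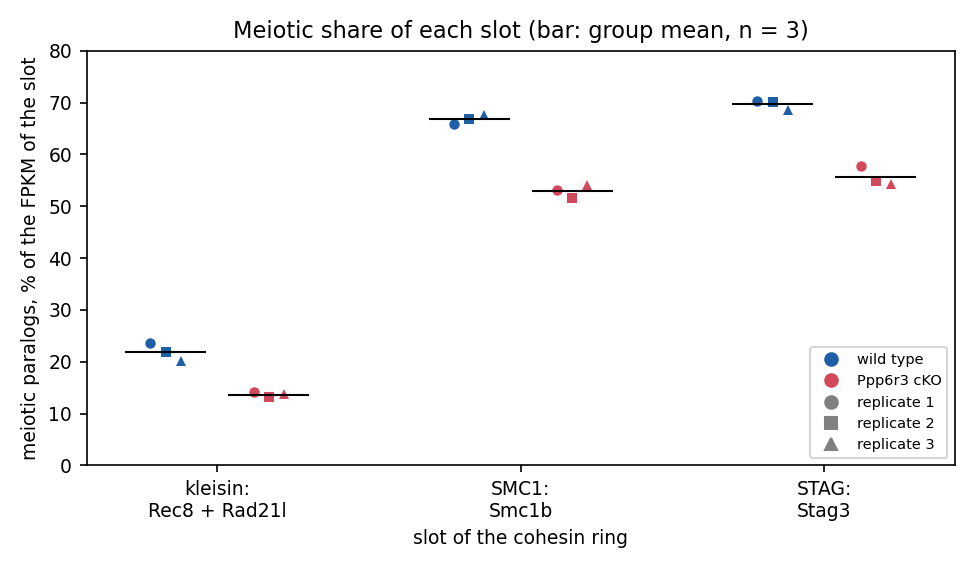
Percent of the summed FPKM of each slot that came from the meiotic paralogs, in each library, with a bar at each group mean. The wild-type libraries lie between 20.1% and 23.6% (kleisin), 65.8% and 67.6% (SMC1) and 68.6% and 70.3% (STAG), and in each slot all Ppp6r3 cKO libraries lie lower.

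The log2 fold changes of the 4 meiotic ring genes ran from -0.90 (Stag3) to -0.63 (Rec8), and whether they differ was not tested. The ratio of Rec8 to Stag3 was 0.287, 0.285 and 0.267 in wild type and 0.333, 0.330 and 0.345 in Ppp6r3 cKO, so in each Ppp6r3 cKO library Rec8 stood higher relative to Stag3. The ratio of Smc1b to Stag3 overlapped between the groups (0.463 to 0.506 in wild type, 0.463 to 0.523 in Ppp6r3 cKO), as did that of Rad21l to Stag3 (0.177 to 0.261 and 0.216 to 0.225). These 3 ratios are given as values, since they were chosen after the fold changes were seen.

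Most factors that load, lock, release or protect cohesin did not pass the test. Of 30 listed regulators, 29 were tested, 5 fell, none rose and 24 did not pass. Over all genes tested, 7.86% passed as lower and 7.67% as higher. The median log2 fold change of the 29 regulators was -0.02. Of these 29, 7 were lower and 4 were higher at an unadjusted p under 0.05 (limma), against 15.6% and 15.8% of all genes tested. With limma's voom on recovered fragments 7 passed as lower and 1 as higher, against 12.1% and 11% of all genes. Esco2, the acetyltransferase that locks cohesin on chromatin during replication, was at 9.37, 9.65 and 9.06 FPKM in wild type and at 5.99, 7.26 and 6.71 FPKM in Ppp6r3 cKO. It fell by 0.49 on the log2 scale (limma adjusted p = 0.00523), with no overlap. Nipbl, the cohesin loader, went from 7.29 ± 0.181 to 5.998 ± 0.256 FPKM (SD, n = 3 each) and fell by 0.28 (limma adjusted p = 0.0163). The Nipbl call was lost on leaving out wild-type replicate 2, wild-type replicate 3 or Ppp6r3 cKO replicate 2 (adjusted p at most 0.0656).

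Bub1, the kinase whose histone mark recruits shugoshin to centromeres, was at 20.4, 19.99 and 20.7 FPKM in wild type and at 12.96, 14.8 and 13.9 FPKM in Ppp6r3 cKO. It fell by 0.55 (limma adjusted p = 0.00103). Ctcfl, the germ cell paralog of CTCF, the factor at which cohesin loops stop, was at 4.81, 5.30 and 4.77 FPKM in wild type and at 3.93, 2.96 and 2.50 FPKM in Ppp6r3 cKO. It fell by 0.67 (limma adjusted p = 0.0209), while Ctcf was not called. The Ctcfl call was lost on leaving out any 1 wild-type library or Ppp6r3 cKO replicate 2 (adjusted p at most 0.0754). Meikin, a meiotic kinetochore protein that helps shield REC8 at centromeres, was low, at 0.948, 0.712 and 0.575 FPKM in wild type and at 0.440, 0.123 and 0.122 FPKM in Ppp6r3 cKO. It fell by 1.47 (limma adjusted p = 0.0304) on only 3 to 24 fragments per library. With a pseudocount of 1 the Meikin fall was 0.51, and its call was lost on leaving out any 1 library other than Ppp6r3 cKO replicate 1.

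Regulators that did not pass included the releasing factor Wapl (log2 fold change 0.05), the separase gene Espl1 (0.14) and Sgo1. Some uncalled regulators passed under an alternative, in both directions. Mau2, the partner of NIPBL in loading, passed as lower after the GC and length correction (-0.17) and with voom (-0.13), and Ppp2r5e, which encodes a regulatory subunit of protein phosphatase 2A, with voom (-0.17). Pttg1, the securin gene, passed as lower without Ppp6r3 cKO replicate 3 (-0.21). Espl1 passed as higher without the same library (0.22, limma adjusted p = 0.0359). Plk1, a kinase that removes cohesin from chromosome arms, passed as higher without Ppp6r3 cKO replicate 2 (0.26). The scaffold subunit gene Ppp2r1a of protein phosphatase 2A, the phosphatase that shugoshin recruits, passed as higher after the GC and length correction (0.13) and with voom (0.11).

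The other SMC complexes showed no called change. Of 16 tested subunits of condensin, which compacts chromosomes, and of the SMC5/6 complex, which acts in DNA repair, none passed with limma, and the median log2 fold change was -0.05. At an unadjusted p under 0.05, 5 were lower and 2 were higher (15.6% and 15.8% of all genes), and voom passed 5 as lower (12.1% of all genes): Smc4, Ncapd3, Ncapg, Smc6 and Slf1, between -0.29 and -0.15. After the GC and length correction Smc4 passed as lower (-0.23) and Smc2, its condensin partner, as higher (0.21). Smc2 also passed as higher without Ppp6r3 cKO replicate 1 (0.24). Eid3, a subunit of SMC5/6 in germ cells, was under 1 FPKM in every library and was not tested.

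**Figure D4:**
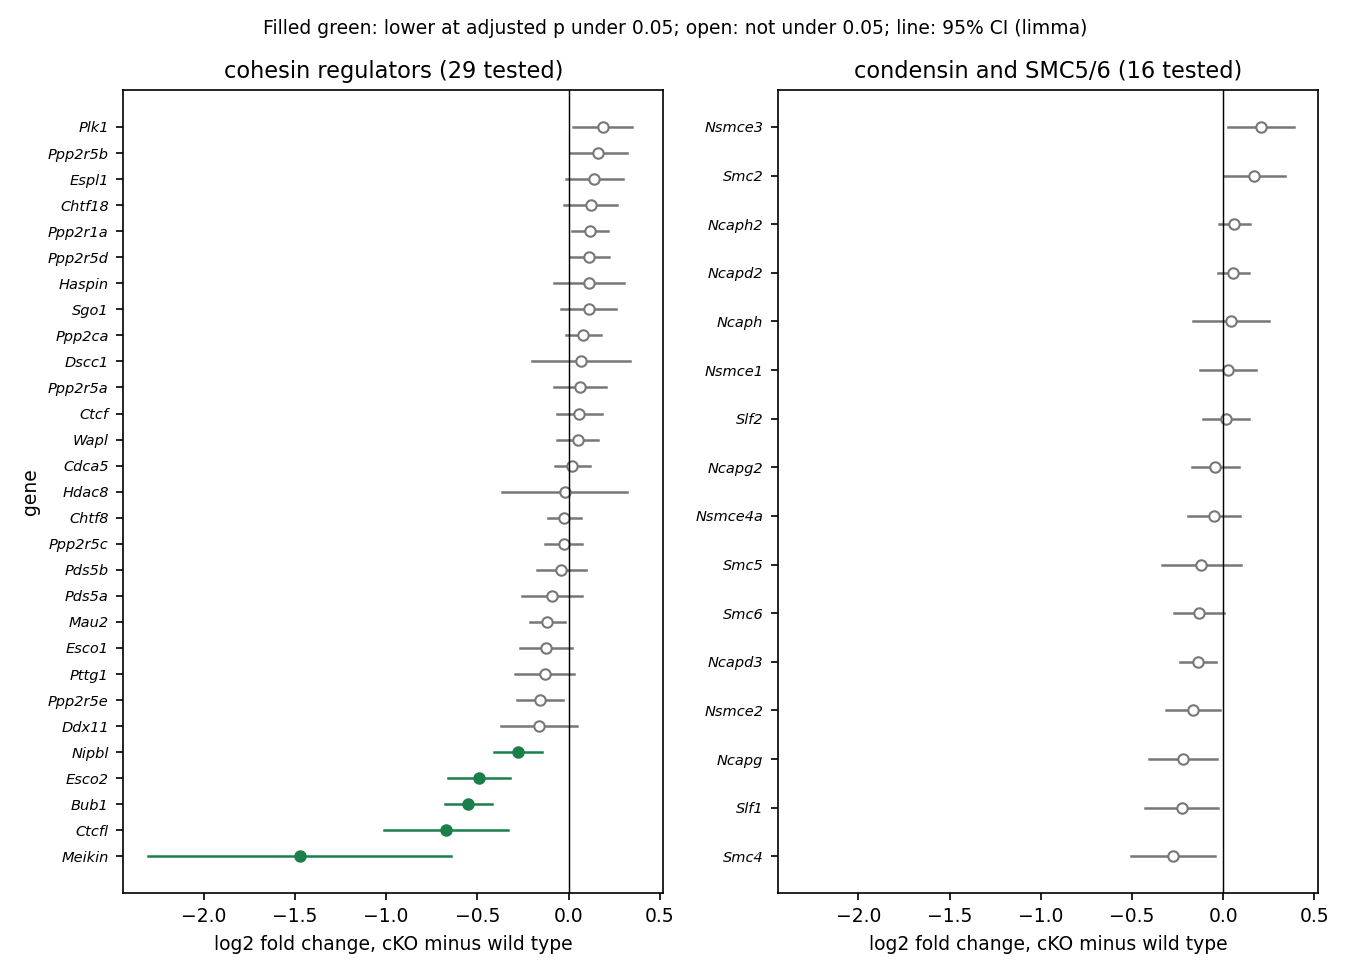
Log2 fold changes (Ppp6r3 cKO minus wild type) with 95% confidence intervals for 29 tested cohesin regulators and 16 tested subunits of condensin and SMC5/6, filled green where the gene was lower at a limma adjusted p under 0.05. Nipbl, Esco2, Bub1, Ctcfl and Meikin are the 5 called genes, and none is called in the right-hand panel.

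Markers of the cells in the tissue moved between the groups beside these results. For all marker counts below, 7.86% of all genes tested passed as lower and 7.67% as higher. At an unadjusted p under 0.05 (limma) the shares were 15.6% and 15.8%. Of 10 genes listed as germ cell markers, 3 fell (Dazl, Mael and Tex101), none rose and 7 did not pass. The median log2 fold change of the 10 was -0.0067, against -0.82 for the meiotic cohesin set. At an unadjusted p under 0.05, 4 of the 10 were lower and 3 were higher, and Ddx4, the germ cell helicase, was at -0.16 (limma adjusted p = 0.0855, passing with voom). Their summed level was 569.3 to 586.3 FPKM in wild type and 478.5 to 505.7 FPKM in Ppp6r3 cKO. Tex101 fell by 0.79, Dazl by 0.25 and Mael by 0.17, while the rest of that list lay between -0.16 and 0.21. Tex101 alone went from a mean of 129.3 to 74.6 FPKM, a large part of the change in the summed level. Both the Dazl and the Mael call were lost when any wild-type library or Ppp6r3 cKO replicate 2 was left out and with no filter on low values. The Dazl call was also lost with a minimum of 0.5 FPKM, with quantile normalization and without robust estimation, and the Mael call after the GC and length correction. Of 8 markers of differentiating spermatogonia, 3 fell, 2 rose and 3 did not pass, and their summed level went from 626.3 to 655.1 FPKM in wild type to 497.7 to 548.0 FPKM in Ppp6r3 cKO, without overlap. Stra8, the retinoic acid target that starts meiosis, was at -1.34, while Kit, the receptor of differentiating spermatogonia, was at 0.07 (not passing). Stra8 alone went from a mean of 129.9 to 51.4 FPKM, a large part of the change in the summed level of the differentiating markers.

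Of 9 tested markers of undifferentiated spermatogonia, 5 rose, among them Zbtb16 at 0.50, and 4 did not pass. The summed level of all 10 listed, 1 of them not tested, went from 83.5 to 85.5 FPKM in wild type to 103.8 to 107.9 FPKM in Ppp6r3 cKO. Of 10 Sertoli markers, 2 fell (Gata1 at -0.47 and Rhox5 at -0.51), 1 rose (Amh at 0.36) and 7 did not pass, among them Sox9 at 0.02. Their sum, 2156 to 2228 FPKM in wild type and 2035 to 2232 FPKM in Ppp6r3 cKO, overlapped. Endothelial markers were higher (5 of 6 rose, 33.5 to 37.3 against 53.9 to 57.5 FPKM), as were macrophage markers (3 of 6 rose, 105.1 to 110.4 against 139.8 to 152.1 FPKM). Leydig markers summed to 218.5 to 225.9 against 250.3 to 261.4 FPKM (2 of 7 rose), peritubular myoid markers to 591.6 to 617.6 against 500.3 to 528.8 FPKM (2 of 5 fell) and erythroid markers to 319.6 to 355.5 against 202.7 to 222.6 FPKM (3 of 5 fell). All these sums follow their most abundant genes. Acta2, from a mean of 551.7 FPKM in wild type to 463.3 FPKM in Ppp6r3 cKO, made up most of the myoid sum. Of 8 markers of later spermatocytes and spermatids, 6 were under 1 FPKM in every library. The part of these shifts in the fall of the meiotic cohesin genes was not tested.

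The promoters of the cohesin genes were read next, since 4 of the 5 meiotic genes fell. RefSeq windows (GRCm38.p6, 250 bases before to 50 bases after the start site) were at hand for 8 of the 10 genes, all but Stag2 and Rad21. The letters TCCCGC, the core of sites bound by E2F factors, were searched on both strands. E2F6, a repressive member of that family, is known to keep Stag3 and Smc1b silent in somatic cells. Of the 8 genes, 7 hold TCCCGC in at least 1 window, 4 of the 5 meiotic and all 3 mitotic ones, against 22.1% of all genes in the table and 19.98% of all windows. The longer form TTCCCGC, which contains TCCCGC, was in 5 of the 8 (Stag3, Smc1b, Sgo2a, Stag1 and Smc1a) against 5.29% of all genes. The windows of the 7 genes with TCCCGC were richer in G and C than 53.5% to 94.9% of all windows. The shares over all genes were not matched for base composition. The matches near the start sites are shown because genes that fell (Stag3, Smc1b, Rec8 and, by a small amount, Smc3) and genes that did not pass (Sgo2a, Stag1 and Smc1a) carry the same letters. Capitals mark TCCCGC or, in Smc3, where it lies on the opposite strand, its reverse complement GCGGGA. Each sequence runs in the direction of its gene, and the places are chr5:138280495-138280524 (plus strand), chr15:85131987-85132016 (minus strand), chr14:55618116-55618145 (plus strand), chr19:53600413-53600442 (plus strand), chr1:57985343-57985372 (plus strand), chr9:100643421-100643450 (plus strand) and chrX:152016448-152016477 (plus strand).
Stag3: tatcccgtgcctTCCCGCgtttttttctaa
Smc1b: aaaagaatttctTCCCGCgctttttttttt
Rec8: gtgtgcacctgaTCCCGCtggagggcgaca
Smc3: cagggggagcgaGCGGGAgcgagcggagcg
Sgo2a: gcagcacccgctTCCCGCaccatgggacaa
Stag1: aaaggccacgttTCCCGCgccgctgctgcg
Smc1a: cggcttgcactgcgctattTCCCGCgcggg

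Counted from the RefSeq start site, the match began at base -2 in Stag3, -47 in Smc1b, -38 in Rec8, 30 in Smc3, 16 in Sgo2a, -15 in Stag1 and 40 in Smc1a. Smc3 holds another match at base -116, and Sgo2a, which has a pair of RefSeq start sites, holds another at base -52 of its downstream start. The Sgo2a match at base 16 belongs to the upstream start (57985340), outside the gene span given above, which begins at 57995971. In Sgo2a, TTCCCGC was found only at that upstream start. The RefSeq starts used for Stag3 (138280509), Rec8 (55618166) and Stag1 (100643448) lie inside the spans given above, that of Stag1 beginning at 100597798. In Stag3 and Smc1b the match was followed within 2 bases by a run of T. The E-box CACGTG was in the window of Stag3, from base -170, and in those of none of the other 7 genes (7.15% of all windows). The letters CNCCTCAG, the motif reported for STRA8 binding, were in the windows of none of the 8 (7.94% of all windows). Rad21l stood apart in composition: its window was 29.0% G and C with 2 CpG, below 99% of all windows, while the windows of the other 7 genes ran from 54.0% to 73.7%. Its upstream sequence (chr2:151668534-151668633, minus strand, up to the base before the start site) is shown for that contrast. Rad21l also fell, and its window holds no TCCCGC. Whether TCCCGC bears on any of the fold changes was not tested.
Rad21l: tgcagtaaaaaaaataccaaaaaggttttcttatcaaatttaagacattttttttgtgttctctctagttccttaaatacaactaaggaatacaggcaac

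Of the cohesin genes, 3 start back to back with a measured protein-coding gene on the opposite strand, by the rule of a start within 1000 bases upstream in GENCODE M21. Smc1b lies 114 bases from Ribc2, Smc1a lies 133 bases from Ribc1, and Stag3 lies 235 bases from Gpc2. Ribc1 and Ribc2 are paralogs of each other that encode proteins of ciliary microtubules, so both SMC1 genes are paired with a RIBC gene. The stretches between the annotated exons of these SMC1 and RIBC pairs are shown for that reason. They are chr15:85131965-85132077 for Smc1b and Ribc2 (113 bases, read on the minus strand) and chrX:152016296-152016427 for Smc1a and Ribc1 (132 bases, read on the plus strand), each in the direction of the SMC1 gene, with TCCCGC in capitals where it occurs. The Smc1a match at base 40 lies past the end of its stretch, which stops before the start site.
Smc1b: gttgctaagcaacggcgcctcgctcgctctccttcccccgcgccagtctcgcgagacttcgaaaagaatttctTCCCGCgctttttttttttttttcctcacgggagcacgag
Smc1a: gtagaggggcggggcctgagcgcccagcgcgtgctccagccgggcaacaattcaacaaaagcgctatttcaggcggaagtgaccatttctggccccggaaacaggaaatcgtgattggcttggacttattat

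All 3 of these neighbours fell, including the neighbour of Smc1a, which itself did not. Of all genes tested, 7.86% passed as lower. The neighbours were chosen by position after the members' values were seen, and why they fell was not tested. Ribc2 was at 3.30, 3.17 and 3.19 FPKM in wild type and at 2.39, 2.10 and 1.67 FPKM in Ppp6r3 cKO (log2 fold change -0.64, limma adjusted p = 0.0157), beside Smc1b at -0.85. Ribc1 was at 6.38, 7.09 and 5.06 FPKM in wild type and at 4.30, 3.76 and 3.08 FPKM in Ppp6r3 cKO (-0.72, limma adjusted p = 0.0187), beside Smc1a at -0.02. Gpc2, which encodes a glypican, was at 1.21, 1.69 and 1.83 FPKM in wild type and at 0.871, 0.747 and 0.754 FPKM in Ppp6r3 cKO (-0.90, limma adjusted p = 0.0136), beside Stag3 at -0.90. With a pseudocount of 1 Gpc2 was at -0.52. None of the 3 pairs shares annotated exon bases. Each call was lost without at least 1 library: Ribc2 without any 1 of the wild-type libraries, Ribc1 without wild-type replicate 1, wild-type replicate 2 or Ppp6r3 cKO replicate 2, and Gpc2 without wild-type replicate 2 or 3 (adjusted p at most 0.0542, 0.0614 and 0.0566). The Ribc1 and Ribc2 calls were also lost with no filter on low values.

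**Figure D5:**
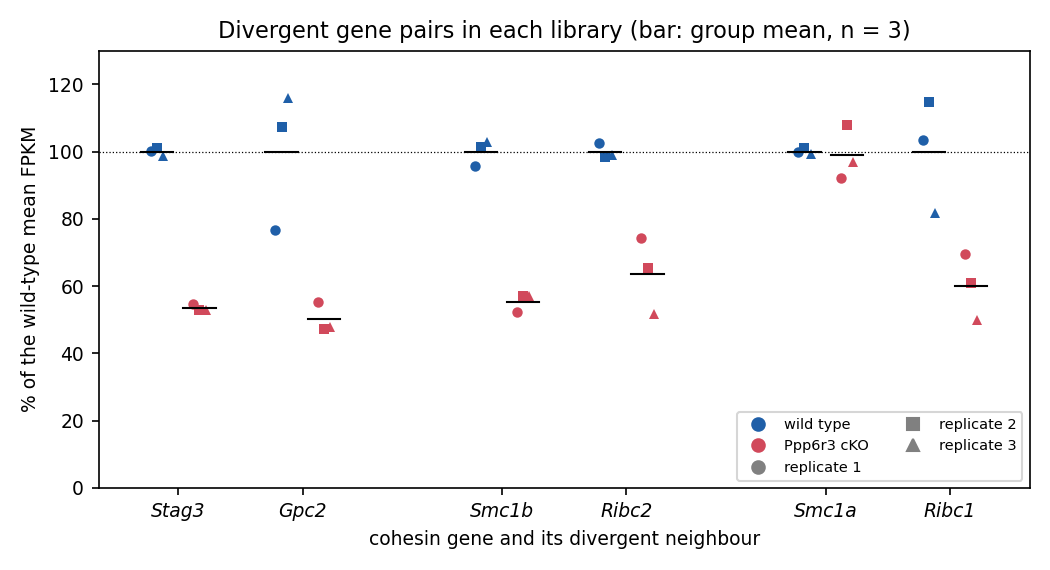
FPKM of Stag3, Smc1b and Smc1a and of their divergent neighbours Gpc2, Ribc2 and Ribc1 in each library, as percent of the wild-type mean of the gene, with a bar at each group mean. The Ppp6r3 cKO mean is at 53.5% for Stag3, 50.1% for Gpc2, 55.4% for Smc1b, 63.7% for Ribc2 and 60.1% for Ribc1, and at 99.0% for Smc1a.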

How the data were processed

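The authors deposited FPKM under a name that says raw counts. Paired-end reads were aligned to mm10 with HISAT2 2.0.5, per the series' design text. The counting tool, its strand setting and the annotation are not given in the sources used here. The submitters' processing notes also name DESeq2. With GENCODE M21 exon lengths, 97.04% of the 32589 genes above 0 came out as whole fragments (tolerance 0.01), which gave the depth, and 35 genes were not recovered.

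The 17647 genes that reached 10 recovered fragments in 3 or more libraries were tested on log2(FPKM + 0.1) with limma 3.58.1 in R 4.3.3 (trend, robust, 2-sided), adjusted by Benjamini-Hochberg over all of them, with 0.05 as the threshold. Fold changes understate those of low genes. The fit was tested on simulated counts with the same dispersion for every gene and no GC shift. That does not show how the fit behaves on the spread of these libraries. Members, lists and tests were chosen with earlier results of these data known. Members were named always, regulators and SMC subunits where they passed (up to 6 in each direction), with Sgo1, Nipbl, Wapl, Espl1, Esco2 and Ctcfl, and 6 markers. Genes that passed only under an alternative, Ctcf, Sgo2b, Eid3, Mael, Tex101, Gata1, Rhox5, Amh, Clu, Acta2, Kctd18 and the divergent neighbours were named after their values were seen. No libraries were duplicates: within groups the chi-square of the counts was 2.22 to 4.28 per degree of freedom. Python 3.11.15 made the tables.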

Additional observations from a re-analysis of the deposited data

How the results depend on the processing

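Without 1 library, with voom, with no filter or a minimum of 0.5 FPKM, with pseudocounts of 0.01 or 1, with median-ratio or quantile scaling, without robust estimation, with the replicate number as a block, after the GC and length correction and at an adjusted p under 0.01, Stag3, Rec8, Rad21l and Smc1b stayed lower and called in each of the 17 settings. The log2 paralog ratios kept their sign in each alternative run, and without 1 library Rad21l/Rad21 ran from -1.06 to -0.79.

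The mitotic genes called lower numbered 0 with no filter and at an adjusted p under 0.01, and 0 to 1 without 1 library. Those called higher numbered 1 after the GC and length correction and 0 to 1 without 1 library. Regulators called lower numbered 3 with no filter, 2 at an adjusted p under 0.01 and 2 to 5 without 1 library. Those called higher numbered 1 with voom, 1 after the GC and length correction and 0 to 1 without 1 library. Of condensin and SMC5/6, voom called 5 lower, the GC and length correction called 1 lower and 1 higher, and leaving out 1 library called 0 to 1 higher. Of all genes, 2144 were lower with voom, 768 with no filter and 472 at 0.01, and 740 were higher with no filter and 418 at 0.01. Without 1 library 639 to 1280 were lower and 595 to 1117 higher, with fewer samples tested. The cause of the other differences was not tested.

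Uncalled values that changed sign without 1 library ran from -0.080 to 0.031 (Smc1a), -0.049 to 0.013 (Stag1), -0.083 to 0.034 (Stag2) and -0.041 to 0.058 (Sox9). Same-numbered libraries did not deviate together (correlations of deviations -0.007 to 0.015). These values show no shift shared by number, but they cannot show that the samples are unpaired. With the replicate block 4 meiotic genes and Smc3 were called lower (Smc3 -0.18), as were 5 regulators, and the ratio of Smc1b to Smc1a stayed at -0.84 (exact p = 0.25, the smallest that 3 pairs can give). Depth limits Meikin, on 3 to 24 fragments per library, and Sgo2a, on 146 to 191.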
